A study of Mus musculus with 3 samples.

Results

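Alveolar type 2 (AT2) cells of mouse lung were followed across 3 libraries of droplet single-cell RNA sequencing, 1 library per group. A barcode (1 droplet, taken as 1 cell) was kept when it held at least 200 genes and at most 10% mitochondrial transcripts. Members were then chosen by measured values, those of 4 genes: Sftpc made up at least 5% of the barcode's unique molecular identifiers (UMIs, each counting 1 captured transcript), Scgb1a1 made up less than 10%, and Ptprc and Pecam1 had no UMI. The rule selected 825 AT2 cells of 6458 kept barcodes (6662 deposited), made up of 320 in FLASH, 383 in CONV and 122 in NI. AT2 cells are the cuboidal epithelial cells of the alveolus that make, store and secrete surfactant, the lipid and protein film that keeps air spaces open. They also secrete defence proteins, present antigen on MHC class II and divide after injury to renew themselves and the thin type 1 cells that carry gas exchange. Ionising radiation breaks DNA, and broken DNA stabilises the transcription factor p53, which switches on genes of cell cycle arrest, repair and cell death.

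The FLASH group is the lung of C57BL/6 female mice aged 10 to 12 weeks after 17 Gy to the thorax in FLASH mode, an ultra-high dose rate. The CONV group had the same strain, sex, age and dose at a conventional dose rate, and both used 4.5 MeV electrons under isoflurane. NI is the lung of non-irradiated C57BL/6 mice of the same sex and age. How many mice made up each library, how long after irradiation lungs were taken and at what hour is not given in the sources used here. No group had a second library to check it. Differences between animals, dissociations, loadings and hours of the day cannot be told apart from the difference in irradiation. The 95% intervals below cover counting error only, and FLASH and CONV are set against the same NI library.

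AT2 cells held 1029333 UMIs in FLASH, 1498428 in CONV and 784153 in NI. The median AT2 cell had 3199 UMIs and 1096.5 genes in FLASH, 3860 UMIs and 1261 genes in CONV, and 6438 UMIs and 1767.5 genes in NI. The other kept barcodes followed the same order, with medians of 1681.5 UMIs in FLASH, 2173 in CONV and 2829 in NI. The mitochondrial share of the median AT2 cell was 4.82% in FLASH, 5.01% in CONV and 5.26% in NI. The libraries shared between 5 and 7 barcode sequences pairwise, none of them an AT2 cell. NI stood apart in its other cells: lymphoid barcodes (Cd3e or Cd79a detected) numbered 358 in FLASH, 394 in CONV and 957 in NI. Levels over the other barcodes, given below, therefore average a different mix of cells in NI.

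The cells carried the markers of their name. Sftpc, the surfactant protein C precursor used by the rule, made up 22.1% of the UMIs of the median AT2 cell in FLASH, 21.3% in CONV and 24.5% in NI, against 0.223%, 0.310% and 0.0877% in the median other barcode of the same libraries. Few barcodes lay near the limit. Between 4% and 5% Sftpc there was 1 kept barcode in FLASH, 1 in CONV and none in NI, and between 5% and 6% there was 1 AT2 cell in FLASH and none in CONV or NI. Lamp3, a protein of the lamellar bodies in which surfactant is stored, averaged 909 CPM (its share of all UMIs summed over the AT2 cells of a library, as counts per 1000000) in FLASH, 986 in CONV and 1217 in NI, against 19.7, 30.8 and 26.8 CPM in the other barcodes. Slc34a2, the phosphate transporter of AT2 cells, stood at 2872, 2894 and 3665 CPM in FLASH, CONV and NI AT2 cells. Abca3, which pumps phospholipid into lamellar bodies, had 448, 452 and 472 CPM, and Etv5, a transcription factor that maintains AT2 identity, had 342, 344 and 301 CPM in the same order. Of 5509 genes with at least 10 UMIs in the AT2 cells of every library, 215 were at least 5 times and 29 at least 20 times the level of the other barcodes in all 3. Among the 29 were Mfsd2a, a lysophospholipid transporter, Egfl6, a secreted matrix protein, and S100g, a calcium-binding protein. Since Sftpc chose the cells, these contrasts with other cells describe the selection.

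AT2 cells made up a larger share of kept barcodes in both irradiated libraries than in the control library, which held many more lymphoid barcodes. The share of kept barcodes was 13.9% in FLASH (320 of 2296, exact interval 12.5 to 15.4), 15.7% in CONV (383 of 2434, 14.3 to 17.2) and 7.06% in NI (122 of 1728, 5.90 to 8.37). FLASH exceeded NI by 6.88 percentage points (Newcombe interval 4.99 to 8.73) and CONV exceeded NI by 8.68 points (6.77 to 10.5). The difference of FLASH minus CONV was -1.80 points (-3.82 to 0.232). Over kept barcodes without a UMI of Ptprc, the shares were 19.6% in FLASH, 22.8% in CONV and 13.9% in NI. On that denominator FLASH minus CONV was -3.16 points (-5.94 to -0.378). Part of the lymphoid barcodes held no Ptprc UMI and stayed in it. There they made up 12.3% of FLASH (200 of 1631), 11.7% of CONV (196 of 1681) and 41.3% of NI (361 of 875). Lymphoid barcodes thus count in both denominators, and for far more in NI. These shares do not show whether AT2 cells differed relative to the other non-lymphoid cells. How well a cell type survives digestion also sets its share of droplets, and the number of AT2 cells in the lung was not measured.

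Gene levels were compared for 6936 genes with at least 30 UMIs over the AT2 cells of the 3 libraries. A gene was called where the ratio of CPM was past 1.5-fold in either direction and its 95% interval left out 1. By this rule 5.28% of the genes were called higher and 4.27% lower in CONV over NI, and 4.37% higher and 4.05% lower in FLASH over NI. For FLASH over CONV, 1.51% were called higher (105 genes) and 2.02% lower (140 genes). Among so many genes, some intervals leave out 1 by counting error alone, so a call in FLASH over CONV weighs less than the larger sets against NI. The median log2 ratio over all genes tested was 0.01 for CONV over NI, -0.02 for FLASH over NI and -0.03 for FLASH over CONV. Of the genes called in FLASH over CONV 42.9% were higher, and 53.6% were once ratios were centred on the median gene.

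Targets of p53 led the genes ranked higher in AT2 cells of both irradiated libraries. Phlda3 (chr1:135766119-135769136, plus strand, mm10), an inhibitor of Akt signalling, had 129 UMIs in FLASH AT2 cells (125 CPM), 186 in CONV (124 CPM) and 4 in NI (5.10 CPM). The ratio was 24.6 for FLASH over NI (9.37 to 91.5) and 24.3 for CONV over NI (9.35 to 90.2). With 4 UMIs in NI the size of this ratio is poorly fixed. It ran from 13.8 at a 5% mitochondrial limit (CONV over NI) to 41.6 without cells carrying markers of some other types (FLASH over NI). Ccng1 (chr11:40748552-40755311, minus strand), which encodes cyclin G1, a partner of Mdm2 in the control of p53, stood at 162 CPM in FLASH, 170 in CONV and 19.1 in NI. Cdkn1a (chr17:29090976-29100727, plus strand), which encodes the cell cycle inhibitor p21, stood at 526 CPM in FLASH (541 UMIs), 469 in CONV (703 UMIs) and 84.2 in NI (66 UMIs). Its ratio was 6.24 for FLASH over NI (4.83 to 8.19) and 5.57 for CONV over NI (4.33 to 7.29). All 3 genes were several-fold higher in each irradiated library than in NI, and none was called between FLASH and CONV, where the ratios were 1.01 for Phlda3, 0.953 for Ccng1 and 1.12 for Cdkn1a.

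Cdkn1a is the textbook p53 target, and its promoter is shown because the list rests on binding by that factor. Windows from 250 bases before to 50 after each annotated start were taken from RefSeq (GRCm38.p6). They were searched on both strands for a p53 double site, the tandem motif bound by p53, with or without a spacer. Only an exact match to the motif in both copies counted. Of 27025 genes with a window, 20 held an exact match (0.0740%), and of the 21 on the p53 list, 1 held it, Cdkn1a. Sites with a mismatch were missed by this search: the Ccng1 window held a near match, which did not count. The exact match lay in 1 of 2 Cdkn1a windows, chr17:29090729-29091028 on the plus strand, starting at position -73 from the start. The capitals below mark the exact match with its spacer, and whether p53 binds these letters was not measured. The letters directly after the capitals come close to a further copy of the motif, with a mismatch, and were not marked.
Cdkn1a: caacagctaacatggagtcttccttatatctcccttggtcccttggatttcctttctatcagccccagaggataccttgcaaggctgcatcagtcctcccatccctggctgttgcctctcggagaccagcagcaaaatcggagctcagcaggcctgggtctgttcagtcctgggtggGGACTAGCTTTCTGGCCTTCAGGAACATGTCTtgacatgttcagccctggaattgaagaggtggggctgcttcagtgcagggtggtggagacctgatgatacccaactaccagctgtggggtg
The match is a description of letters, and the lack of an exact match in the other windows does not show that they hold no p53 site.

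Of 40 listed p53 targets, 39 were in the files and 26 had enough UMIs. In FLASH over NI, 12 of the 26 were called higher and none lower, with a median log2 ratio of 0.95. In CONV over NI, 13 were called higher and none lower, with a median of 0.89. Gdf15, a secreted stress cytokine, had 47.6 CPM in FLASH, 48.0 in CONV and 6.38 in NI. Bax, the pore-forming protein of mitochondrial cell death, had 176 CPM in FLASH, 165 in CONV and 61.2 in NI, a ratio of 2.87 for FLASH over NI (2.08 to 4.04) and 2.69 for CONV over NI (1.97 to 3.75). Both genes were thus higher in the 2 irradiated libraries, Gdf15 by the larger factor, though on 5 UMIs in NI. Rps27l, a ribosomal protein paralog, reached 662 CPM in FLASH, 718 in CONV and 287 in NI, and Dcxr, a xylulose reductase, 502, 478 and 256 CPM in that order. The remaining genes called against NI in both irradiated libraries were Ei24, an endoplasmic reticulum protein, Trp53inp1, a p53 cofactor, Plk2, a polo-like kinase, Perp, a desmosome-linked membrane protein, and Aen, a nuclease, with ratios between 2.29 and 4.72. Mdm2, the ubiquitin ligase that degrades p53, was called for CONV over NI alone, at 34.0 CPM in FLASH, 40.7 in CONV and 21.7 in NI. Its ratio of 0.835 for FLASH over CONV had an interval that held 1 (0.535 to 1.29). Not every target differed: Btg2, an antiproliferative gene that is also an immediate early gene, stood at 474 CPM in FLASH, 404 in CONV and 417 in NI, and the cell death gene Bbc3 at 30.1, 22.7 and 21.7 CPM.

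**Figure D1:**
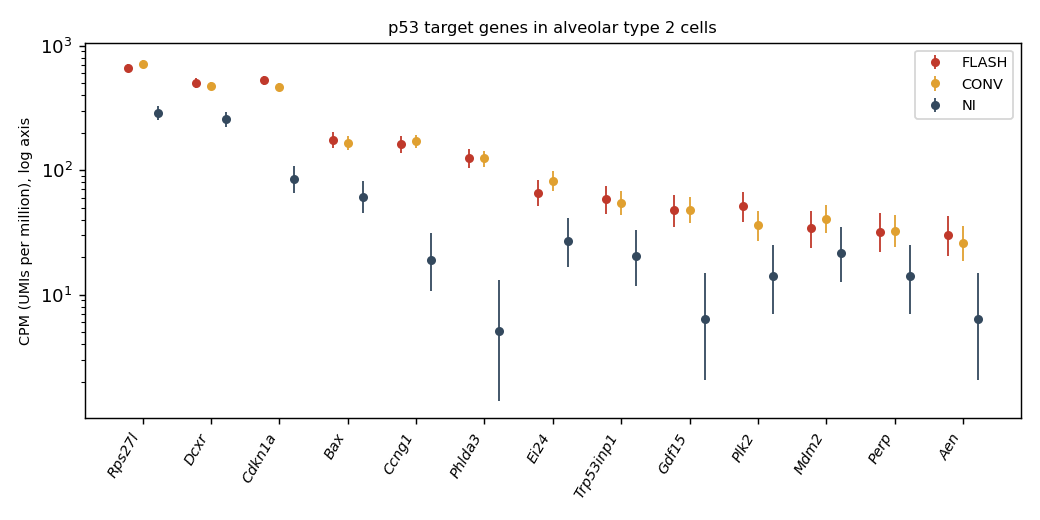
Levels (CPM, log axis) of the 13 p53 targets called higher in CONV over NI, in AT2 cells of FLASH, CONV and NI, with exact Poisson 95% intervals as bars. FLASH and CONV points lie side by side and above NI for each gene, from Rps27l at 662, 718 and 287 CPM to Aen at 30.1, 26.0 and 6.38 CPM.

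Between FLASH and CONV no p53 target was called in either direction (0 of 26), and the median log2 ratio was 0.08, beside -0.03 over all genes tested. Of all genes tested, 1.51% were called higher and 2.02% lower, so that 0 of 26 does not set these targets apart. For the targets with most UMIs the intervals were narrow. They ran from 0.836 to 1.02 for Rps27l, from 0.936 to 1.18 for Dcxr, from 1.00 to 1.25 for Cdkn1a (1 lying just inside), from 0.876 to 1.30 for Bax and from 0.780 to 1.16 for Ccng1. For rarer targets they were wide, for example 0.959 to 2.13 for Plk2 around a ratio of 1.43. These intervals bound the counting error of 2 libraries and do not show that the modes act alike.

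The number of p53 targets per cell was counted over all 26 targets tested, called or not, among them the widely detected Rps27l and Btg2. To compare cells of unequal depth, each was thinned to 1500 UMIs, which left out 14 cells of FLASH, 2 of CONV and none of NI. At least 3 of the 26 targets were then detected in 70.9% of FLASH cells (217 of 306), 70.3% of CONV cells (268 of 381) and 22.95% of NI cells (28 of 122). None of them was detected in 1.961% of FLASH, 1.31% of CONV and 16.4% of NI cells. The most targets found in 1 thinned cell was 10 in FLASH, 8 in CONV and 4 in NI. The summed target UMIs per cell averaged 4.91 in FLASH, 4.76 in CONV and 2.05 in NI, with variance over mean (the Fano factor, 1 for pure counting noise) of 1.52, 1.29 and 1.25. FLASH cells had the highest value of the 3. Thinned to 1000 UMIs, at least 3 targets were found in 43.8% of FLASH, 46.7% of CONV and 8.20% of NI AT2 cells, against 19.5%, 19.8% and 13.4% of the lymphoid barcodes.

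**Figure D2:**
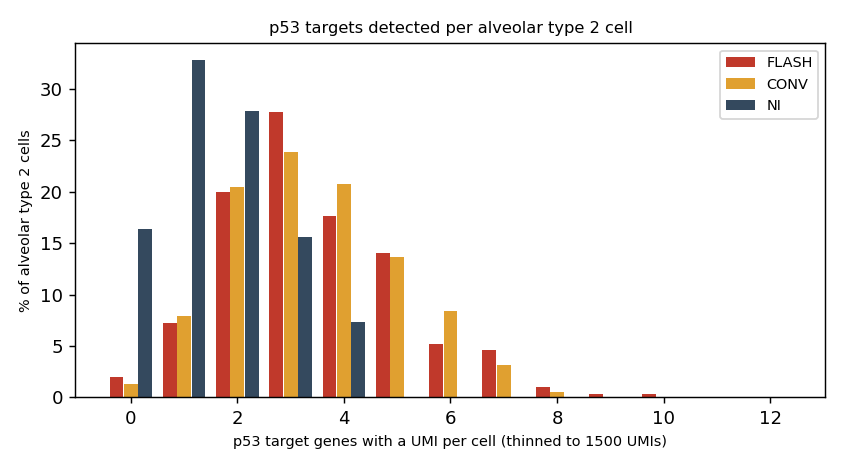
Share of AT2 cells (%, vertical axis) by the number of the 26 p53 targets with a UMI after thinning to 1500 UMIs (horizontal axis), in FLASH, CONV and NI. The FLASH and CONV bars peak at 3 targets (27.8% and 23.9% of cells), and the NI bars peak at 1 target (32.8%).

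Cdkn1a was also detected in a larger share of AT2 cells in both irradiated libraries than in NI. It was detected in 51.3% of thinned FLASH cells (exact interval 45.6 to 57.0), 44.1% of CONV cells (39.0 to 49.2) and 10.7% of NI cells (5.80 to 17.5). Without thinning the shares were 70.0%, 72.8% and 30.3%. At 1000 UMIs per cell Cdkn1a was found in 38.8% of FLASH, 35.2% of CONV and 6.56% of NI AT2 cells, against 11.9%, 9.90% and 4.08% of lymphoid barcodes in those libraries (18.2%, 20.8% and 10.4% unthinned, at medians of 1490, 1997 and 2661 UMIs). Ccng1 at 1000 UMIs was found in 16.9% of FLASH, 16.4% of CONV and 0.820% of NI AT2 cells, against 8.78%, 6.35% and 4.08% of lymphoid barcodes. For Phlda3, 12.7% of FLASH and 17.6% of CONV cells at 1500 UMIs had a UMI. Of the 122 thinned NI cells 0 had one, which allows a share of up to 2.46% (3 counts of 122) and limits cells with a UMI at that depth, not cells that express the gene. Without thinning the Phlda3 shares were 30.6%, 35.8% and 3.28%. At 1000 UMIs Phlda3 was found in 10.6% of FLASH and 12.8% of CONV AT2 cells, against 4.53% and 5.33% of lymphoid barcodes. In both irradiated libraries AT2 cells exceeded the lymphoid barcodes for Cdkn1a, Ccng1 and Phlda3. Over all other kept barcodes, Phlda3 had 203 CPM in FLASH, 205 in CONV and 48.0 in NI, above AT2 cells in each library. Cdkn1a, at 654, 618 and 156 CPM there, was also above AT2 cells. Ccng1, at 108, 110 and 41.1 CPM, was below them in FLASH and CONV and above them in NI. In NI the Ccng1 share of AT2 cells lay below that of lymphoid barcodes, and the 15 Ccng1 UMIs there cannot be told apart from free RNA.

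The contrast with NI was set beside that in other cells of the same libraries. In stromal barcodes (470 in FLASH, 559 in CONV, 162 in NI), Cdkn1a stood at 721 CPM in FLASH, 736 in CONV and 180 in NI. The FLASH over NI ratio of AT2 cells was 1.56 times that of stromal barcodes (1.12 to 2.17), and for CONV over NI it was 1.36 times (0.987 to 1.88). Ccng1 differed more between the cell types: its ratio in AT2 cells was 4.72 times the stromal one for FLASH (2.49 to 8.93) and 4.97 times for CONV (2.67 to 9.27). Dcxr went the other way, with 0.561 times (0.330 to 0.953) and 0.551 times (0.329 to 0.922) the stromal ratio. Over 21 targets with at least 5 UMIs in each of the 4 sums, the AT2 ratio was the larger in 16 for FLASH and 14 for CONV, with an interval wholly above 1 in 5 and 4 and wholly below 1 in 1 and 1. Against ciliated barcodes (74, 64 and 16) it was the larger in 9 of 10 targets for FLASH and 10 of 10 for CONV, with an interval above 1 in 6 and 7. For Cdkn1a it was 5.12 times the ciliated ratio for FLASH (3.15 to 8.33) and 9.45 times for CONV (5.54 to 16.1), on only 16 NI ciliated barcodes. Club barcodes (9, 12 and 10) allowed the comparison for 3 targets in FLASH and 4 in CONV. They were unlike in depth, with medians of 3886 UMIs in FLASH, 2892.5 in CONV and 19706 in NI. The AT2 ratio was the larger in 1 of these targets for each. For Btg2 the interval lay wholly below 1 in FLASH (0.567, 0.372 to 0.863) and in CONV (0.550, 0.359 to 0.844). Against alveolar type 1 barcodes (47, 35 and 13) it was the larger in 3 of 4 targets for FLASH and 2 of 3 for CONV, with an interval above 1 for Perp in FLASH (4.95, 1.20 to 20.4). Cdkn1a could not be compared in this way with type 1 or club barcodes, which held 1 Cdkn1a UMI each in NI. In type 1 barcodes it had 26 UMIs in FLASH and 34 in CONV, a ratio of 12.0 (1.97 to 492) and 14.2 (2.38 to 577) over NI, and in club barcodes 2 and 4 UMIs.

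Other genes ranked high beside the p53 list. Ephx1, microsomal epoxide hydrolase, had 91.3 CPM in FLASH, 74.1 in CONV and 11.5 in NI, with ratios of 7.96 (4.02 to 17.9) and 6.45 (3.28 to 14.5) over NI. C2cd4b, a nuclear calcium-binding domain protein, stood at 116, 110 and 30.6 CPM, and the imprinted non-coding RNA Kcnq1ot1 at 103, 101 and 29.3 CPM. Hivep2, a zinc finger transcription factor, had 36.9, 28.0 and 5.10 CPM. Cbr2, an abundant lung carbonyl reductase, had 5696 CPM in FLASH, 5389 in CONV and 2738 in NI, a ratio of 2.08 (1.98 to 2.19) and 1.97 (1.88 to 2.07). Cbr2 (chr11:120729489-120732114) and Dcxr (chr11:120725399-120727281) lie next to each other on the minus strand in mm10 and code for related reductases. Dcxr was called higher in AT2 cells of both irradiated libraries as well. In the other barcodes Cbr2 had 1962, 2123 and 1078 CPM and Dcxr 165.5, 178.7 and 61.0 CPM in FLASH, CONV and NI, so that both were higher in the irradiated libraries there too.

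Of 14 circadian clock genes tested, 5 were called higher and none lower in each irradiated library over NI, and 9 were not called. Those called in both were Dbp, Per3, Tef and Bhlhe41. The clock is a feedback loop in which Clock and Bmal1 switch on Per and Cry repressors and the output factors Dbp and Tef through the E-box CACGTG and its variants, so that levels swing with the hour of day. Dbp, a leucine zipper factor, had 258 CPM in FLASH (266 UMIs), 202 in CONV (302 UMIs) and 26.8 in NI (21 UMIs). The ratio was 9.65 for FLASH over NI (6.18 to 15.8) and 7.53 for CONV over NI (4.83 to 12.3). After thinning to 1500 UMIs these ratios were 6.08 and 4.08. Per3, a period family member, stood at 93.3, 90.8 and 25.5 CPM in FLASH, CONV and NI, and Tef, a relative of Dbp, at 57.3, 58.1 and 15.3 CPM. The median log2 ratio of the 14 was 0.55 for FLASH over NI and 0.45 for CONV over NI. The repressor Per2 had 23.3, 33.4 and 10.2 CPM and was called for CONV. The nuclear receptor Nr1d2 had 60.2, 36.7 and 35.7 CPM, and was called for FLASH over NI and over CONV (1.64, 1.12 to 2.40). The Nr1d2 call over CONV was lost at a mitochondrial limit of 20%, at 1.48, and that over NI on thinning, at 1.51. Several core members were not called: Nr1d1, the other Rev-erb receptor, stood at 76.7, 81.4 and 90.5 CPM, Per1 at 41.8, 35.4 and 40.8 CPM, and Cry2 at 39.8, 40.0 and 30.6 CPM. Arntl, which encodes Bmal1, had too few UMIs to be tested, with 0 in FLASH, 3 in CONV and 14 in NI.

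Outside AT2 cells both irradiated libraries also lay above NI, where Dbp had 138 CPM in FLASH, 150 in CONV and 31.2 in NI. Per3 in the other barcodes stood at 52.7, 59.3 and 14.6 CPM. These levels average over a mix with far more lymphoid barcodes in NI. Within lymphoid barcodes at 1000 UMIs, Dbp was found in 3.68% of FLASH, 6.09% of CONV and 1.46% of NI. For Per3 these shares were 2.83%, 3.05% and 0.313%. The hour at which each lung was taken is not known, and its part in the clock genes was not tested. The E-box CACGTG, searched on both strands, was found in promoter windows of 8.09% of all genes (2187 of 27025) and of 3 of 12 clock genes, Tef, Bhlhe41 and Per1. It was also found for 4 of 21 p53 targets. Bhlhe41, a repressor of the clock, had 18 UMIs in FLASH AT2 cells, 24 in CONV and 1 in NI, a ratio of 13.7 (2.17 to 571) and 12.6 (2.05 to 516) over NI. With cells weighted equally the Bhlhe41 ratios were 3.68 and 3.80 and the calls were lost. The windows of the 2 that were called higher are shown with the E-box in capitals, Tef from chr15:81811164-81811463 on the plus strand at position -138, and Bhlhe41 from chr6:145865371-145865670 on the minus strand at position -153.
Tef: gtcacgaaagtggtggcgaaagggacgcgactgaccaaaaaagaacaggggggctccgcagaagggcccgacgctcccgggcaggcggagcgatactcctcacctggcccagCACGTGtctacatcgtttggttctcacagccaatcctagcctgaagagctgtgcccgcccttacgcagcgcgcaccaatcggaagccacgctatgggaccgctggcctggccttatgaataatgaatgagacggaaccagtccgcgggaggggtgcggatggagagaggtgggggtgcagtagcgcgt
Bhlhe41: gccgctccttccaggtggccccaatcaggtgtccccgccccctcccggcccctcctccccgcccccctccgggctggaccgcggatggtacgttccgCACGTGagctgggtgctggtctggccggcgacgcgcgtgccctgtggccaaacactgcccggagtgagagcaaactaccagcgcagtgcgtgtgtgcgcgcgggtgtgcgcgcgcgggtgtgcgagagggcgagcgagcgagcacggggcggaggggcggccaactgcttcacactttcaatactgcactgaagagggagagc
Dbp, Per3 and Nr1d2 had no CACGTG in these windows.

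Among secreted defence products, Lrg1, Itih4, Hc, Cxcl15 and Il33 were called lower in both irradiated libraries, while others were called higher or not called. Lrg1 (chr17:56119678-56122001, minus strand), a leucine-rich acute phase glycoprotein, had 305 CPM in FLASH (314 UMIs), 238 in CONV (356 UMIs) and 823 in NI (645 UMIs), a ratio of 0.371 for FLASH over NI (0.323 to 0.425) and 0.289 for CONV over NI (0.253 to 0.329). It was detected in 25.2% of thinned FLASH cells, 22.6% of CONV cells and 45.1% of NI cells, with Fano factors of 2.15, 2.51 and 3.09, above the 1 of counting noise. Unthinned shares were 36.9%, 38.6% and 67.2%. At 1000 UMIs it was found in 18.8%, 17.0% and 38.5% of AT2 cells, against 1.70%, 0.508% and 0.731% of lymphoid barcodes. Itih4, an acute phase inhibitor chain, had 76.7 CPM in FLASH, 89.4 in CONV and 241 in NI. Hc, complement component 5, had 536, 547 and 946 CPM, and Cxcl15, a lung-specific chemokine, 4110, 4379 and 6699 CPM in the same order. The alarmin Il33 had 202 CPM in FLASH, 268 in CONV and 432 in NI. Its ratio was 0.467 for FLASH over NI (0.391 to 0.557) and 0.621 for CONV over NI (0.536 to 0.719). The CONV call was lost when cells were weighted equally, at 0.668, and without the conditions on Ptprc and Pecam1, at 0.679. For CONV, the calls of Cxcl15 and Hc were lost at a mitochondrial limit of 5%, at 0.716 and 0.681. Each of these 5 genes had both irradiated libraries below NI, and none was called between FLASH and CONV.

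The list of defence genes moved in both directions. Of 21 acute phase and antimicrobial genes tested, 4 were called lower and 3 higher in FLASH over NI, and 4 lower and 4 higher in CONV over NI, with medians of -0.16 and -0.26. The genes called higher were Scgb3a2, Chil3 and Wfdc17 in both and Scgb3a1 in CONV. In the irradiated AT2 cells they stood between 2.20% (Chil3 in FLASH) and 7.88% (Wfdc17 in CONV) of their level in the other barcodes, so that free RNA cannot be told apart from expression. Lcn2, lipocalin 2, had 778 CPM in FLASH, 795 in CONV and 953 in NI and was not called. Retnla, a resistin-like secreted protein, had 46 UMIs in FLASH (44.7 CPM), 33 in CONV (22.02 CPM) and 73 in NI (93.1 CPM), and was also called for FLASH over CONV at 2.03 (1.27 to 3.28). That last call was lost on thinning, at 1.51. Tmem213, a small membrane protein, had 4 UMIs in FLASH, 24 in CONV and 32 in NI, so that it was lower in FLASH than in either of the others.

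**Figure D3:**
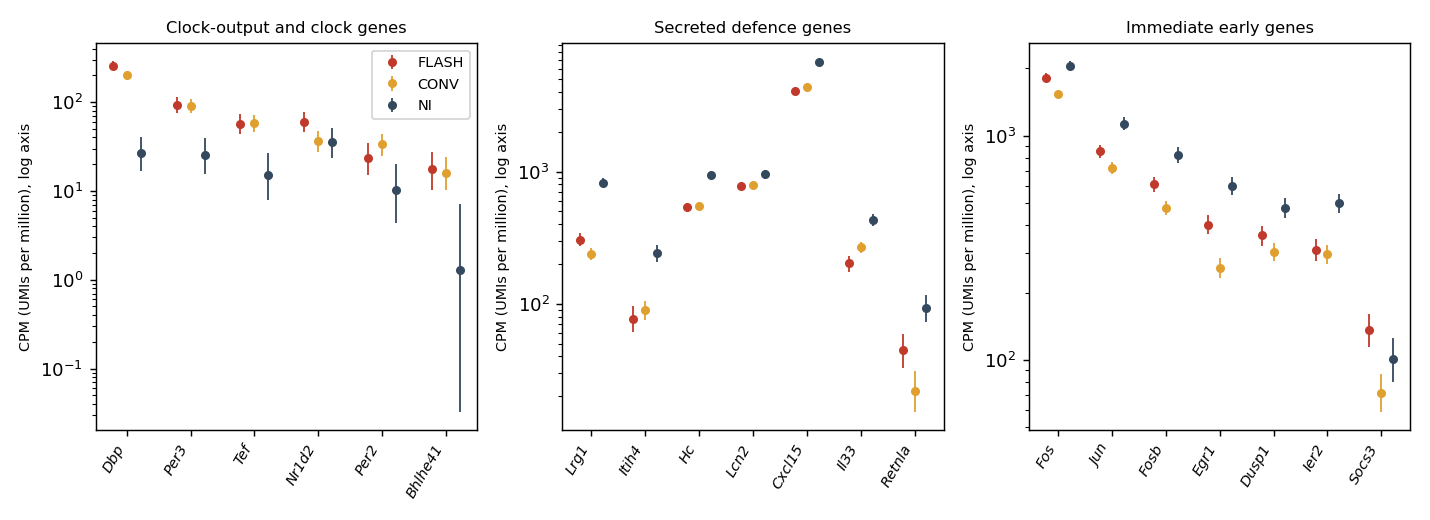
Levels (CPM, log axes, exact Poisson 95% intervals) of 6 clock genes, 7 secreted defence genes and 7 immediate early genes in AT2 cells of FLASH, CONV and NI. Dbp lies above NI (258 and 202 against 26.8 CPM) and Lrg1 below it (305 and 238 against 823 CPM), and Egr1 lies higher in FLASH than in CONV (402 against 258 CPM).

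Other genes with lower levels in both irradiated libraries had roles in lipid storage, stress and uptake. Plin2, which coats lipid droplets, had 55.4 CPM in FLASH, 69.4 in CONV and 158 in NI. In the other barcodes, a mix with far more lymphoid barcodes in NI, Plin2 ran the opposite way, at 189, 162 and 99.6 CPM. That was not so within lymphoid barcodes at 1000 UMIs, where Plin2 was found in 5.67%, 4.06% and 6.06%. Nupr1, a stress-induced chromatin protein, had 265, 304 and 592 CPM in AT2 cells and 356, 347 and 199 CPM in the others. In lymphoid barcodes at 1000 UMIs Nupr1 was found in 5.95%, 6.09% and 2.93%. Acot1, a cytosolic acyl-CoA thioesterase with the near-identical copy Acot2 beside it, had 134, 158 and 306 CPM, and Acot2 had 52.5, 59.4 and 125 CPM. Counting may have split reads between them. Lrp2, the endocytic receptor megalin, had 76.7, 73.4 and 172 CPM, and Rasl11a, a small GTPase, 40.8, 40.0 and 112 CPM. Each of these genes was called lower in both irradiated libraries. Nnat (neuronatin, an endoplasmic reticulum protein) had 23.3, 19.4 and 57.4 CPM, and Dync2li1, a light chain of ciliary dynein 2, had 26.2, 14.7 and 51.0 CPM. Dmkn, an epithelial secreted protein, had 23.3, 26.7 and 67.6 CPM, and Sema4a, a semaphorin, 11.7, 20.02 and 40.8 CPM. The calls of Dmkn and Sema4a over NI were lost on thinning in both irradiated libraries.

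Among lipid synthesis genes, the abundant Scd1 and Fabp5 were highest in CONV. Scd1, stearoyl-CoA desaturase, had 4797 CPM in FLASH, 6616 in CONV and 4083 in NI. The ratio was 1.62 for CONV over NI (1.56 to 1.69) and 1.17 for FLASH over NI (1.12 to 1.23), and for FLASH over CONV it was 0.725 (0.701 to 0.750), which is inside the 1.5-fold limit. Fabp5, a fatty acid binding protein, followed with 1431, 1924 and 1015 CPM and a FLASH over CONV ratio of 0.744 (0.698 to 0.792). For both genes the intervals between FLASH and CONV left out 1. Pmvk, phosphomevalonate kinase of the cholesterol pathway, had 514, 643 and 319 CPM and was called in both irradiated libraries over NI. Of 27 fatty acid and phospholipid genes tested, none was called higher and 4 lower in FLASH over NI, and 4 higher and 3 lower in CONV over NI, with none called between FLASH and CONV (median -0.15). The 4 called higher in CONV were Scd1, Fabp5, the desaturase Fads1 and the lipoprotein lipase Lpl, the last at 29.3% of its CONV level in other barcodes. Fasn, fatty acid synthase, stood at 455, 470 and 445 CPM, with a ratio of 1.02 for FLASH over NI (0.887 to 1.18). Of 24 cholesterol genes, 2 were higher and 1 lower in FLASH over NI, and 4 were higher and none lower in CONV over NI. Over all genes tested, 4.37% were called higher and 4.05% lower in FLASH over NI, and 5.28% and 4.27% in CONV over NI. For FLASH over CONV these shares were 1.51% and 2.02%. In lists of this size, counts of 1 or 2, or none, do not set the genes apart. The sterol transporter Stard4 was called in both, at 35.0, 35.4 and 11.5 CPM, on 9 UMIs in NI.

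Few surfactant genes were called, as was true of all genes tested. Over all of them, 4.37% were called higher and 4.05% lower in FLASH over NI, and 5.28% and 4.27% in CONV over NI. For FLASH over CONV these shares were 1.51% and 2.02%. In a list of 20 genes, counts this small do not set surfactant genes apart. Sftpa1, surfactant protein A, had 26331 CPM in FLASH, 25981 in CONV and 25695 in NI, and Sftpb 14334, 14731 and 15771 CPM. Sftpd, a defence collectin, had 3867, 3655 and 4704 CPM, a ratio of 0.822 for FLASH over NI (0.786 to 0.860). Of 20 surfactant genes tested, none was called in FLASH over NI and 1 in CONV over NI (Rab38, a lamellar body GTPase, on 12 UMIs in NI). For FLASH over CONV 1 was called, Anxa7, an annexin of secretory vesicles, at 1.59 (1.12 to 2.28), a call lost at a mitochondrial limit of 5% (1.33). The median log2 ratios were 0.00 for FLASH over NI and -0.08 for CONV over NI. Among 23 identity genes, Nkx2-1, the master factor of lung epithelium, stood at 235 CPM in FLASH, 280 in CONV and 311 in NI, and Cebpa, a leucine zipper factor of surfactant gene control, at 301, 266 and 179 CPM. Cebpa was called for FLASH over NI at 1.69 (1.38 to 2.07). In all, 2 identity genes were higher (Cbr2, Cebpa) and 4 lower (Cxcl15, Hc, the mucin Muc1 and the forkhead factor Foxa2) in FLASH over NI, and 3 higher (Scd1, Cbr2, Fabp5) and 2 lower (Cxcl15, Hc) in CONV over NI.

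Of 22 immediate early genes tested, which respond within minutes to growth factors, stress or tissue dissociation, 4 were called higher and none lower in FLASH over CONV, and 18 were not called. Egr1, a zinc finger factor, had 402 CPM in FLASH (414 UMIs), 258 in CONV (387 UMIs) and 599 in NI (470 UMIs). FLASH exceeded CONV 1.56-fold (1.35 to 1.79), and after thinning the ratio was 1.49 and the call was lost. Socs3, an inhibitor of cytokine signalling, had 136, 71.4 and 101 CPM and a FLASH over CONV ratio of 1.90 (1.47 to 2.47). The 4 called were Egr1, Socs3, Ier3, a stress-induced survival gene, and Maff, a small Maf transcription factor. The ratio was above 1 in 17 of the 22, including Fos (1822, 1546 and 2058 CPM), Jun (854, 718 and 1134 CPM) and Fosb (607, 476 and 823 CPM), with a median log2 ratio of 0.26. Medians near this size were not particular to the list. Genes of the Krt8-high transitional state, taken up below, had 0.28 (ratio above 1 in 14 of 20). Glucocorticoid targets had 0.23 (10 of 15). For immediate early genes against NI, FLASH had 3 lower and 2 higher with a median of -0.17, and CONV had 10 lower and 1 higher with a median of -0.52. The genes called higher were the factor Cebpb in both, at 11.1% of its level in other barcodes in FLASH and 11.6% in CONV, and the factor Klf4 in FLASH.

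In the other barcodes FLASH also lay above CONV: Egr1 had 327 CPM in FLASH and 301 in CONV, Fos 1128 and 993 CPM, and Socs3 161 and 110 CPM. For Egr1 this gap was smaller than in AT2 cells. Its NI level there, 223 CPM, lay below both, whereas in AT2 cells NI was the highest. NI held far more lymphoid barcodes in that mix. Within lymphoid barcodes at 1000 UMIs, Egr1 was found in 6.52% of FLASH, 8.38% of CONV and 6.90% of NI. For Fos these shares were 31.7%, 26.4% and 24.5%, and for Socs3 10.2%, 4.82% and 4.70%. These genes are known to be induced while tissue is digested, and how long dissociation took is not given in the sources used here. Its part in these differences was not tested. Further genes ranked higher in FLASH over CONV were Thbs1, a matrix glycoprotein (82.6 CPM in FLASH, 42.7 in CONV and 89.3 in NI), Mt2, a metallothionein (146, 90.8 and 126 CPM), Gem, a small GTPase (119, 74.7 and 108 CPM), Slc30a5, a zinc transporter (31.1, 11.3 and 33.2 CPM), and Ppl, the cell junction protein periplakin (43.7, 22.02 and 24.2 CPM). In Thbs1, Mt2, Gem and Slc30a5 the FLASH level was near that of NI and CONV was the low one. The calls of Mt2, Gem, Slc30a5 and Ppl, and those of Polr2l, a polymerase subunit, and Snrpc, a splicing protein, were each lost under at least 1 other setting.

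Genes ranked lower in FLASH than in CONV had few UMIs. Meg3, an imprinted non-coding RNA, had 3 UMIs in FLASH, 30 in CONV and 12 in NI, a ratio of 0.146 (0.0284 to 0.468), and in CONV it stood at 38.6% of its level in other barcodes. Mmgt1, a membrane magnesium transporter, had 6, 31 and 9 UMIs, and Cdc40, a splicing factor, 6, 31 and 8. Map2k4, a kinase upstream of JNK, had 8, 37 and 11, Smurf1, a ubiquitin ligase, 7, 34 and 8, and Lsm2, an RNA-binding protein, 16, 55 and 25. Mdp1, a phosphatase, Gatad2a, a NuRD complex subunit, C1galt1, a glycosyltransferase, and Zmym2, a zinc finger protein, ranged from 9 to 24 UMIs in FLASH and from 36 to 74 in CONV. No list in use here tied these 10 genes together. The calls of Meg3, Map2k4 and Smurf1 were lost at a mitochondrial limit of 5%.

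**Figure D4:**
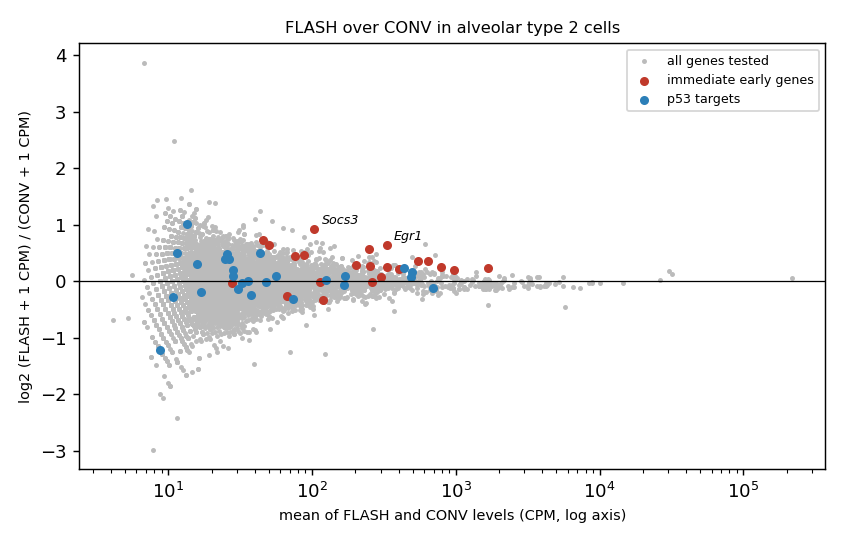
Log2 ratio of FLASH over CONV (vertical axis, pseudocount 1 CPM) against the mean of the 2 levels (CPM, log axis) for the 6936 genes tested in AT2 cells, with immediate early genes and p53 targets coloured. The p53 targets scatter about 0 (median 0.08) and 17 of 22 immediate early genes lie above it (median 0.26, 4 called), while the spread of all genes widens at low levels.

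Antigen presentation and repair-state genes gave smaller differences. Cd74, the invariant chain of MHC class II, had 3742 CPM in FLASH, 3552 in CONV and 5411 in NI, and H2-Ab1, a class II chain, 591, 548 and 858 CPM. Of 8 class II genes tested, none was called lower in FLASH over NI and 3 in CONV over NI (Cd74, H2-Ab1 and H2-DMb1), while the ratio was below 1 in 7 of 8 for each. The Cd74 ratio of 0.656 for CONV lay close to the limit, and the call was lost with cells weighted equally, at 0.679, and with Sftpc from 2% upward, at 0.669. The gene called higher in both, the protease Ctss, was at 2.73% of its level in other barcodes in FLASH and 5.87% in CONV. Genes of the Krt8-high transitional state, which AT2 cells pass through on the way to type 1 cells, had median log2 ratios of -0.05 for FLASH over NI and -0.27 for CONV over NI. Of 20 tested, 1 was called higher and 1 lower in FLASH over NI, and 1 higher and 4 lower in CONV over NI. Over all genes tested, 4.37% were called higher and 4.05% lower in FLASH over NI, and 5.28% and 4.27% in CONV over NI. The FLASH counts do not set these genes apart. Krt8 had 185 CPM in FLASH, 138 in CONV and 204 in NI, and Krt18, its keratin partner, 278, 219 and 344 CPM. The gene called higher was S100a6, a calcium-binding protein, at 13.3% of its level in other barcodes in FLASH and 8.66% in CONV. Of 14 type 1 genes, Lmo7, a junction scaffold (187, 197 and 111 CPM), and Timp3, a protease inhibitor (130, 152 and 77.8 CPM), were called higher in both irradiated libraries. Vegfa, a vascular growth factor, was called lower in CONV over NI, at 48.6, 33.4 and 71.4 CPM and a ratio of 0.467 (0.313 to 0.697), and not in FLASH. That Vegfa call was lost at a mitochondrial limit of 5%, at 0.793, and on thinning, at 0.667. Ager, the receptor for glycation products, had 1048, 1004 and 1374 CPM.

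Of 28 cell cycle genes, 5 reached 30 UMIs. Ccnd2, cyclin D2, was called higher in both irradiated libraries over NI, Hmgb2 was called lower in both, and Tyms, thymidylate synthase, was called lower in FLASH over NI and over CONV on 4, 25 and 15 UMIs. The Ccnd2 call in CONV was lost under several settings, for example at 1.46 with doublets left out, and the calls of Ccnd2 and Tyms were lost on thinning. Mki67 and Top2a, which mark dividing cells, were too rare to be tested, with 2, 10 and 8 UMIs of Mki67 and 1, 0 and 12 of Top2a in FLASH, CONV and NI. The share of dividing cells was not measured. Ccnd1, cyclin D1, had 143, 136 and 130 CPM. Hmgb2, a chromatin protein, had 95.2 CPM in FLASH, 88.1 in CONV and 162 in NI, and in NI it stood at 8.69% of its level in the other barcodes. Of 13 senescence and secreted factor genes, 6 were called higher in each irradiated library over NI and 1 lower in CONV, Areg, the growth factor amphiregulin (127, 96.1 and 156 CPM), a call lost with cells weighted equally, at 0.744. Called higher were Cdkn1a and Gdf15, which are also p53 targets, and Igfbp6, a growth factor binding protein (113, 115 and 53.6 CPM), in both. The other genes called higher were Tgfb1 and Fn1 in both, at 12.6% or less of their level in other barcodes, Serpine2, a protease inhibitor, in FLASH and Timp2, a metalloprotease inhibitor, in CONV.

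RNA of other cells was measured in the AT2 cells by marker lists. The fibroblast list (7 genes) summed to 172 CPM in FLASH AT2 cells, 358 in CONV and 62.5 in NI, which is 4.12%, 7.56% and 2.94% of its level in the other barcodes. The neutrophil list (6 genes) stood at 18.1%, 17.4% and 6.57%, the alveolar macrophage list (8 genes) at 3.41%, 6.49% and 3.79%, the T cell list at 1.37%, 5.08% and 5.05%, and the endothelial list at 16.8%, 18.0% and 7.81%. Some lists stood higher. The B cell list was at 13.7%, 20.9% and 12.8%, the thymocyte list at 13.4%, 20.3% and 5.40%, and the erythroid list at 12.5%, 13.9% and 67.4%. The alveolar type 1 list was at 174%, 189% and 492%, and the monocyte list at 454%, 497% and 1113%. The monocyte list summed to 33264, 30656 and 37067 CPM, near the level of Lyz2 given below. The macrophage markers Marco, Siglecf and Krt79 and the fibroblast marker Col1a2 were at 0 in NI AT2 cells, and the thymocyte markers Rag1, Rag2, Dntt and Arpp21 at 0 in FLASH and CONV. Cells with at least 2 markers of the same list were left out as an alternative. The lists used were those of alveolar macrophages, T cells, thymocytes, B cells, fibroblasts and endothelial cells. The other lists were not used, though 42 FLASH, 63 CONV and 5 NI AT2 cells carried at least 2 neutrophil markers. The removal left 284 AT2 cells in FLASH, 311 in CONV and 102 in NI. The median log2 ratio of p53 targets was then 0.83 for FLASH over NI and 0.96 for CONV over NI. Of the ratios of single genes recomputed without those cells, 372 stayed the same, 15 lost the call, 6 gained one and 4 moved. Genes called stayed the same if called again in the same direction. Genes not called did so if still not called with a ratio inside their first interval.

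AT2 cells differed most among themselves in Lyz1. This gene (chr10:117287797-117292868, minus strand) encodes a lysozyme and lies beside its near-identical copy Lyz2 (chr10:117277331-117282321), so that counting may have split reads between them. Lyz1 was chosen after its values were seen. Over 611 genes with a mean of at least 0.2 UMIs per thinned cell in every library, the median Fano factor was 1.08 in FLASH, 1.07 in CONV and 1.08 in NI, while that of Lyz1 was 26.5, 31.0 and 28.3. Lyz1 had no UMI in 64.1% of FLASH, 69.0% of CONV and 69.7% of NI cells, and at least 10 UMIs in 12.7%, 11.5% and 11.5%. At 1000 UMIs it was found in 27.2%, 27.4% and 21.3% of AT2 cells, against 3.12%, 4.31% and 0.9404% of lymphoid barcodes. The 31 FLASH cells with most Lyz1 held 79.7% of its UMIs, the 39 highest CONV cells 87.0% and the 13 highest NI cells 90.7%. The average level was alike, at 2527, 2358 and 2559 CPM, so a minority of AT2 cells with very high Lyz1 was present in each library. Lyz2 had 33151 CPM in FLASH, 30541 in CONV and 36951 in NI, with Fano factors between 8.13 and 9.34.

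**Figure D5:**
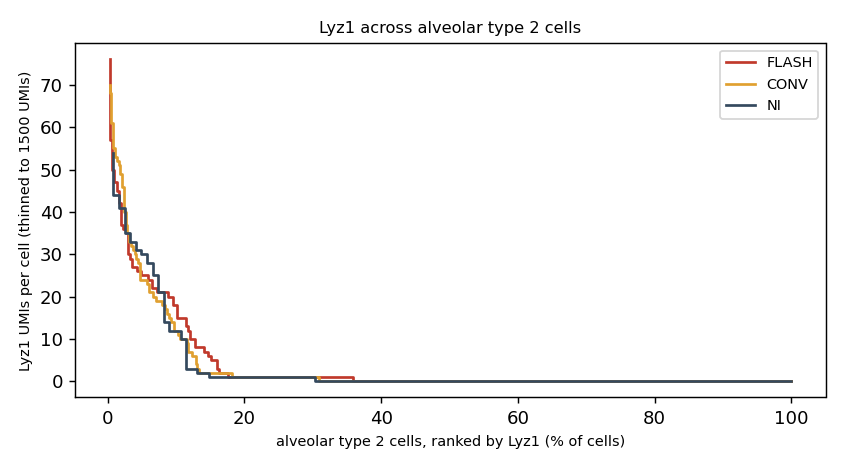
Lyz1 UMIs per AT2 cell after thinning to 1500 UMIs (vertical axis), with cells ranked from highest to lowest (horizontal axis, % of cells), in FLASH, CONV and NI. The 3 curves fall steeply over the first cells, from 76, 70 and 54 UMIs, and reach 0 before the last 64.1% or more of cells.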

How the data were processed

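Lungs of 3 groups were profiled by droplet single-cell RNA sequencing, 1 library per group. The authors deposited whole-number UMI counts per gene and barcode, made with Cell Ranger 2.0 on mm10, per the submitters' processing notes; steps before that are not given in the sources used here. Depth was 5498902 UMIs in FLASH, 7463259 in CONV and 7114360 in NI over all barcodes. Of the 27998 gene identifiers, 27645 were found in GENCODE M21, which gave positions. Barcodes with under 200 genes (39 in FLASH, 9 in CONV, 2 in NI) or over 10% mitochondrial UMIs (59, 64 and 31) were removed.

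UMIs were summed over the AT2 cells of a library and scaled to 1000000 (CPM), with exact Poisson intervals. Ratios have exact conditional binomial intervals, shares have Clopper-Pearson intervals, differences of shares have Newcombe intervals, and ratios of ratios have log-normal ones. All are at 95% and cover counting error only. No p-value was computed, since cells are not replicates. List medians use log2 of CPM plus a pseudocount of 1. Doublets were kept, and no AT2 cell exceeded 3 times its library's median UMIs. Leaving out those scored highest by Scrublet (scanpy 1.11.5) was an alternative.

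The genes named in each comparison were the 10 called highest and 10 called lowest by the interval bound nearest 1, given 30 UMIs or more where they were higher and a level there not under 20% of that in the other barcodes. Ribosomal, mitochondrial, globin, receptor, sex-linked and predicted genes were left out. Members of gene lists were added, and any other gene named was chosen after its values were seen. The AT2 rule and the gene lists were chosen with earlier results of these data known. Code was tested on simulated data and used Python 3.11.15, numpy 2.4.6, scipy 1.17.1 and pandas 2.3.3.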

Additional observations from a re-analysis of the deposited data

How the results depend on the processing

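Every alternative changed 1 choice at a time. At a mitochondrial limit of 5%, which left 172 AT2 cells in FLASH, 189 in CONV and 49 in NI, the share of AT2 cells was 8.56% in FLASH, 8.996% in CONV and 3.37% in NI, beside 13.9%, 15.7% and 7.06%. Over barcodes without Ptprc it was 19.6%, 22.8% and 13.9%. Without the cells left out by the marker lists it was 12.4% in FLASH and 12.8% in CONV.

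The 303 genes called higher in FLASH over NI became 182 at the 5% limit, 173 among genes with at least 100 UMIs and 113 on thinning to 1500 UMIs. The 281 called lower became 184, 163 and 136 under those settings and 130 with a 2-fold limit. For CONV over NI the 366 called higher became 236 at the 5% limit, 189 with at least 100 UMIs and 146 on thinning. The 296 called lower became 165 with at least 100 UMIs, 131 past 2-fold and 157 on thinning. For FLASH over CONV the 105 called higher became 42 with at least 100 UMIs, 47 past 2-fold, 158 with cells weighted equally and 61 on thinning. The 140 called lower became 91 at the 5% limit, 45 with at least 100 UMIs, 71 past 2-fold and 72 on thinning. Thinning left 3717 genes to test instead of 6936. For other falls the cause was not tested. The median log2 ratio of p53 targets ran from 0.56 to 1.17 for FLASH over NI and from 0.67 to 1.21 for CONV over NI.

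Of the single-gene results under all alternatives, 4718 stayed the same, 277 lost the call, 64 gained one, 113 moved and 1 reversed. A called gene stayed the same if called again in the same direction. A gene not called stayed the same if still not called with its ratio inside its first interval, whatever its direction, and otherwise moved. Only called genes could reverse. The 2-fold limit, which changed no ratio, is counted in (322 the same, 77 lost). The call that reversed was Aldh1a1, a retinal dehydrogenase, in FLASH over CONV, at 1.08 with the 5% limit. Leaving out genes under 20% of their level in other barcodes was chosen after seeing the data. On thinning, genes without a UMI in NI, such as Phlda3, gave no ratio. Leaving out a replicate was not possible with 1 library per group. No paired analysis was possible because each group has 1 library. Depth per cell was lowest in FLASH. With a minimum of 10 UMIs in place of 30, all 6 counts of called genes stayed within 1.5 times.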

Other observations

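Ribosomal protein genes, chosen as a list, were slightly higher in both irradiated libraries. Of 81 tested, the ratio was above 1 in 78 for FLASH over NI (median log2 ratio 0.30) and in 80 for CONV over NI (0.38), while 1 and 4 passed the 1.5-fold limit. For FLASH over CONV it was above 1 in 9, with a median of -0.08. Several of these genes have near-identical copies, so that their single values are uncertain. Mitochondrially encoded genes (13) gave no call in any of the 3 comparisons. Of 81 nuclear genes of oxidative phosphorylation, 1 was called higher and none lower in FLASH over NI, and 1 higher and 2 lower in CONV over NI. Over all genes tested, 4.37% were called higher and 4.05% lower in FLASH over NI, and 5.28% and 4.27% in CONV over NI.

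Malat1, an abundant nuclear non-coding RNA chosen after its values were seen, had 32437 CPM in FLASH AT2 cells, 28519 in CONV and 18111 in NI, a ratio of 1.79 for FLASH over NI (1.76 to 1.83) and 1.57 for CONV over NI (1.55 to 1.60). The other barcodes, a mix with far more lymphoid barcodes in NI, held 30937, 27054 and 23874 CPM of Malat1.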
